A study of Homo sapiens with 4 samples.

Results

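The genes described are transcription factors that set cell lineage: basic helix-loop-helix (bHLH), SOX, FOX and GATA factors with the E proteins and the HES and HEY repressors. They were taken by symbol from the annotated probe sets. Symbols starting with NEUROD, NEUROG, ASCL, BHLHE or TWIST were kept, as were HES, HEY, HAND, SOX or GATA followed by a digit, FOX followed by a letter and a digit, ID1 to ID4, TCF3, TCF4 and TCF12. NEUROG2 and antisense transcripts were left out by the same rule. The rule found 93 genes of 14884 named on the array, and 84 of them were bright enough to be tested. They comprise 12 tissue bHLH genes (10 tested), 3 E proteins (3 tested), 8 HES and HEY genes (8 tested), 20 SOX genes (17 tested), 6 GATA genes (6 tested) and 44 FOX genes (40 tested). A further 20 protein-coding genes of these families, among them HES1, NEUROD1, FOXC1 and ID1 to ID4, had no named probe set and were not analysed here. The symbols also took in SOX2-OT, a noncoding transcript, and FOXL2NB, a neighbour of FOXL2 that is not a forkhead gene.

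The study exposed SH-SY5Y cells, an established human neuroblastoma line of sympathetic lineage, to origamicin, an inhibitor of protein disulfide isomerases. Origamicin at 30 µM for 24 h (2 arrays) was compared with its solvent methanol for 24 h (2 arrays, called mock). Both arrays of each group are named biological replicates, all of this 1 line, with nothing said on passages or days. All errors rest on the spread between these arrays only. They are moderated SEs, which draw on the spread of all tested genes besides the gene's own. GATA3, for example, has an SD of 0.012 in mock and 0.009 after origamicin, but an SE of 0.062. RNA was read on Affymetrix Human Gene 2.0 ST arrays, and values are log2 signals, on which a difference of 1 is a doubling. Signals of different probe sets are not comparable as transcript amounts, so each gene is compared only with itself.

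bHLH factors bind E-boxes as dimers: tissue factors such as HAND2 or the neurogenins pair with the widely made E proteins TCF3, TCF4 and TCF12. HES and HEY proteins are bHLH repressors, many of them switched on by Notch receptors through the DNA-binding protein RBPJ. SOX factors bind DNA through an HMG box, forkhead (FOX) factors through a winged helix, and GATA factors through zinc fingers. In the sympathetic lineage HAND2, GATA2 and GATA3 work with PHOX2 and ISL1 proteins to keep the noradrenergic programme on, and SH-SY5Y cells are known for this circuit.

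No lineage factor passed the adjusted threshold of 0.05 in limma, and the changes were small throughout. Of the 84 tested genes, 39 were higher and 45 lower on the origamicin arrays, with a median change of -0.01, against -0.01 over all 11883 genes tested. The changes ran from -0.34 (FOXL2) to 0.43 (FOXI3), and none reached a size of 1. Their median size was 0.10, against 0.11 over all genes, and 81.0% of the factors lay under 0.2 in size, against 76.6% of all genes. At an unadjusted p under 0.05, 5 factors were higher (FOXI3, HES3, FOXD4, GATA4 and SOX6) and 4 lower (FOXR2, HES4, FOXN4 and SOX4). That is 10.7% of the factors. Over all genes tested 16.4% reached that level, 7.99% higher and 8.42% lower, and the share past adjusted p 0.05 was 0%. In this fit of all 4 arrays the share of factors at that level was thus below the background. The counts depend on single arrays, and the direction of this comparison turned with mock replicate 2 left out. With a variance that follows the signal level (an intensity trend in limma), FOXR2 alone of the factors passed the adjusted threshold, where 2.14% of all genes passed as higher and 2.16% as lower.

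**Figure D1:**
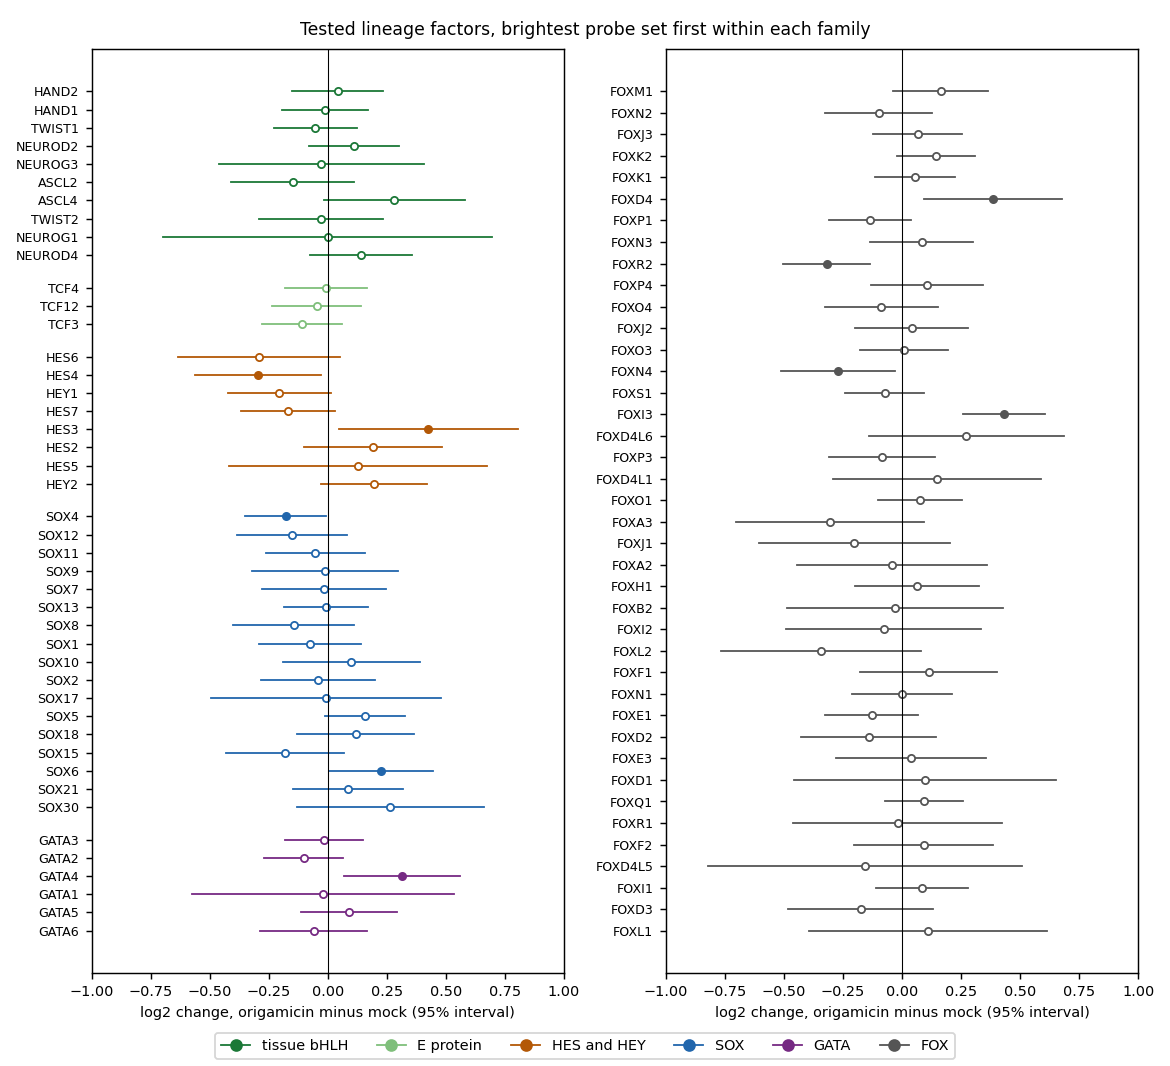
Log2 change with its 95% interval for the 84 tested lineage factors, coloured by family, brightest probe set at the top of each family. Filled points are the 9 genes with an unadjusted p under 0.05 in limma, and the intervals of the other 75 span 0.

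Groups that do not overlap give another view of the same 4 arrays. In 21 factors both origamicin arrays lay above both mock arrays, in 20 both lay below, and in 43 the groups overlapped. Over all genes tested, 22.7% were separated upward and 25.8% downward. The 2 groups were thus separated in 48.8% of the factors and in 48.6% of all genes. The factors were dimmer than most genes, with a median signal of 5.60 against 6.54. Dim factors were measured less tightly: the median 95% interval reached 0.27 to either side for the 60 factors under a signal of 7, and 0.19 for the 24 at or above it. For 63 factors the interval lay wholly within 0.5 of no change.

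**Figure D2:**
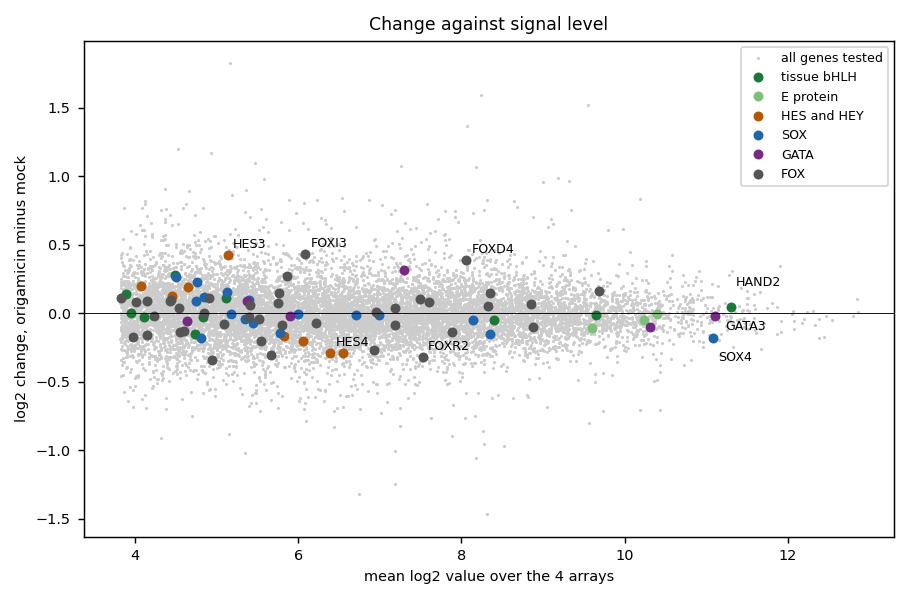
Log2 change of each gene tested (grey) against its mean log2 signal, with the 84 lineage factors coloured by family. The lineage factors lie within the cloud of all genes at every signal level, between -0.34 and 0.43.

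Of the tissue bHLH factors, HAND2 and HAND1 showed no detectable difference between the groups. HAND2 directs sympathetic neuron development and the noradrenaline-making enzymes. It read 11.33 and 11.23 on the mock arrays and 11.34 and 11.30 on the origamicin arrays, and the ranges overlapped. Its change was 0.04 ± 0.07 (SE, n = 2 arrays per group), and the 95% interval allows between 0.900-fold and 1.18-fold. HAND1, its relative in heart and trophoblast, read 9.67 and 9.63 in mock and 9.60 and 9.68 after origamicin. Its change of -0.01 ± 0.07 allows between 0.875-fold and 1.13-fold. TWIST1, a regulator of mesenchyme and neural crest, differed by -0.05 ± 0.07. Of the 10 tissue bHLH genes tested, 0 had an unadjusted p under 0.05 in limma, against 16.4% of all genes tested. The family is small and mostly dim, with a median signal of 4.78 against 6.54 over all genes. Of the 10, 5 were higher and 5 lower, and 9 lay under 0.2 in size, against 76.6% of all genes. The exception was ASCL4, a bHLH factor known from skin, at 0.28 ± 0.11 on a dim probe set with an interval that includes 0. The proneural factor NEUROG2, which the rule left out, stood apart from these relatives: it read 9.07 and 9.02 in mock and 7.47 and 7.69 after origamicin, a change of -1.47 ± 0.10. Whether its change differs from theirs was not tested.

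The E proteins, which pair with all of these factors, were also close to level. TCF4 read 10.37 and 10.42 in mock and 10.40 and 10.37 after origamicin. TCF12 read 10.23 and 10.30 in mock and 10.18 and 10.26 after origamicin. The groups overlapped in both, with changes of -0.01 ± 0.06 for TCF4 and -0.05 ± 0.07 for TCF12. TCF3 read 9.68 and 9.63 in mock and 9.55 on both origamicin arrays, so both origamicin arrays lay below both mock arrays. Its change of -0.11 ± 0.06 has an interval of -0.28 to 0.06.

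The GATA factors of the sympathetic lineage differed little. GATA3 read 11.12 and 11.10 in mock and 11.09 and 11.10 after origamicin, a change of -0.02 ± 0.06 that allows between 0.881-fold and 1.11-fold. Its origamicin arrays lay just below its mock arrays, and the sign turned with quantile normalization (0.0041). GATA2 read 10.38 and 10.35 in mock and 10.27 and 10.25 after origamicin. Both origamicin arrays lay below both mock arrays, but the change of -0.10 ± 0.06 has an interval of -0.27 to 0.07. GATA4, which directs heart and endoderm development, was the GATA gene with a larger difference. It read 7.25 and 7.04 in mock and 7.47 and 7.44 after origamicin. Both origamicin arrays were above both mock arrays, by 0.31 ± 0.09, or 1.24-fold (adjusted p = 0.236 in limma). GATA1, GATA5 and GATA6 were not past an unadjusted p of 0.05.

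**Figure D3:**
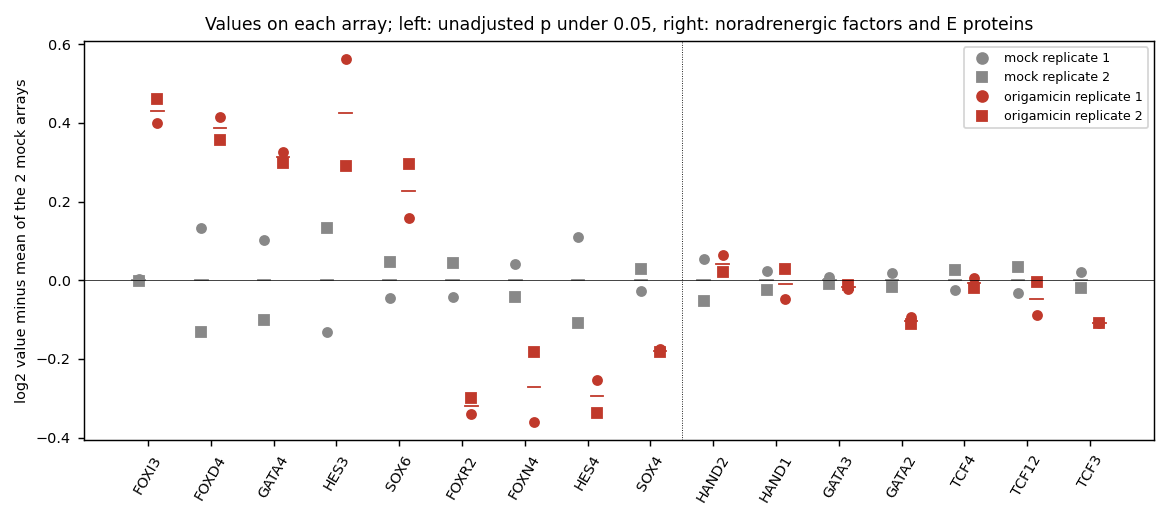
Log2 value on each array minus the mean of the 2 mock arrays, for the 9 factors with an unadjusted p under 0.05 (left of the dotted line) and for HAND, GATA2, GATA3 and E protein genes (right). Short lines are group means. On the left the mock and origamicin arrays do not overlap in any gene. They also do not overlap in GATA3, GATA2 and TCF3 on the right, and in 48.6% of all genes tested. On the right the means lie within 0.11 of 0.

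The genes that share the noradrenergic circuit with HAND2 and GATA3 give a different count. This list and the other marker and pathway lists below were chosen with earlier results of these data known. Their counts and shares are therefore a description and not a test. Of 17 tested circuit partners, 4 were higher and 13 lower, with a median change of -0.19, and 2 higher and 9 lower genes had an unadjusted p under 0.05, against 7.99% and 8.42% of all genes tested. With the intensity trend, 1 higher and 8 lower partners passed the adjusted threshold, against 2.14% and 2.16% of all genes. The homeobox factor MEIS1 differed by -0.70 ± 0.08 and LMO3, a LIM-only cofactor of bHLH complexes, by -0.71 ± 0.08. TBX3, a T-box repressor, differed by 0.42 ± 0.07 and INSM1, a zinc finger factor of neuroendocrine cells, by 0.35 ± 0.12. Markers of cell state were read on the same arrays, and none passed the adjusted threshold in limma. ISL1 and PHOX2A are counted both as circuit partners and as noradrenergic markers. At an unadjusted p under 0.05, 8 noradrenergic markers were lower, 4 mesenchymal markers were higher, and no glial or Schwann cell marker was called. Over all genes tested, 8.42% were lower and 7.99% higher at that level. With the intensity trend, 6 noradrenergic markers passed the adjusted threshold as lower and 4 mesenchymal markers as higher. Of all genes, 2.16% passed as lower and 2.14% as higher. The mean log2 signal of 11 tested noradrenergic markers was 9.74 and 9.80 in mock and 9.39 and 9.44 after origamicin, with all 11 lower. That of 11 tested mesenchymal markers was 5.99 and 5.94 in mock and 6.21 and 6.14 after origamicin, with 10 higher and 1 lower. That of 6 tested glial and Schwann cell markers was 5.41 and 5.42 in mock and 5.46 and 5.48 after origamicin, with 3 higher and 3 lower. The part of these values in any factor's value was not tested, and in bulk RNA fewer cells of a type and less RNA per cell cannot be told apart. HAND1, HAND2, GATA2, GATA3 and the E proteins all differed by 0.11 or less in size on the same arrays. The difference between their changes and those of the partners was not tested.

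**Figure D4:**
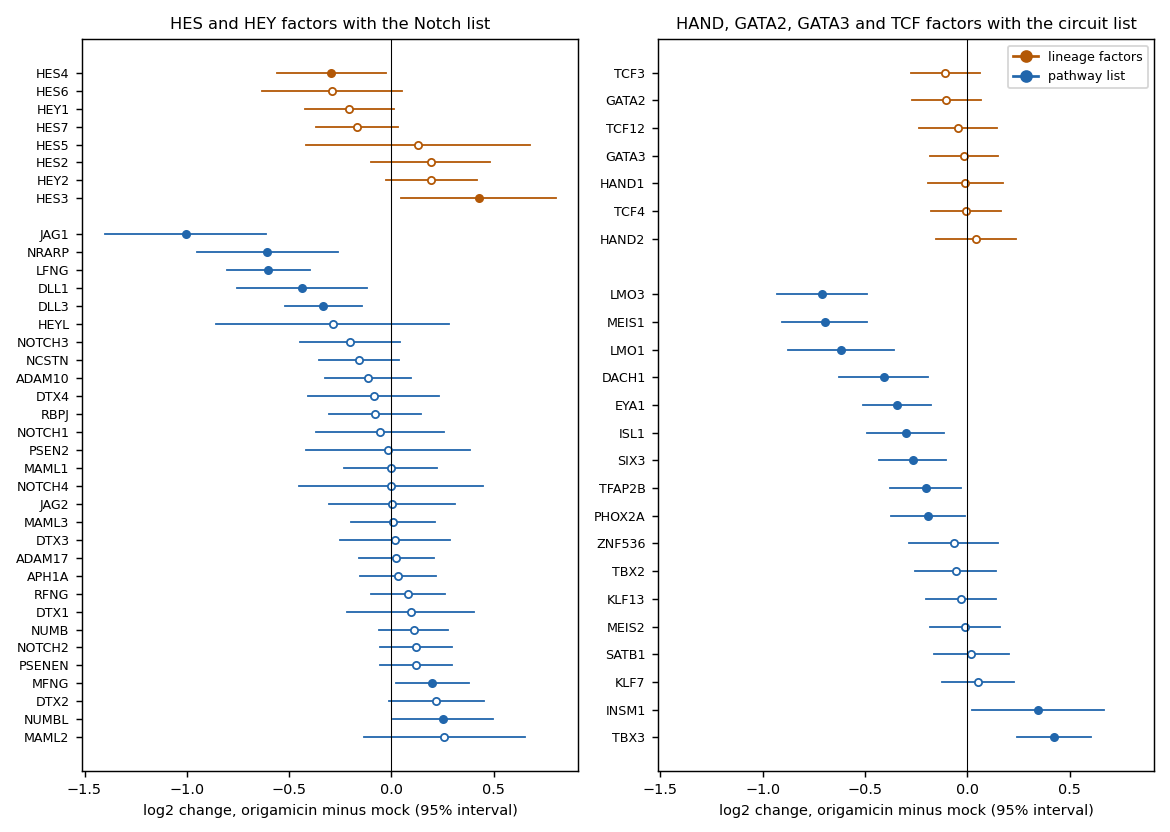
Log2 change with 95% interval for HES and HEY factors above the tested Notch pathway genes (left), and for HAND1, HAND2, GATA2, GATA3 and the E proteins above the tested noradrenergic circuit partners (right). Filled points have an unadjusted p under 0.05 in limma. JAG1 reaches -1.01 on the left and LMO3 -0.71 on the right, while the 7 factors on the right lie between -0.11 and 0.04.

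The proneural factors activate neurogenesis genes. Of 18 such genes tested, 4 were higher and 14 lower, with a median of -0.09, and 5 were lower and 0 higher at an unadjusted p under 0.05 (27.8%, against 16.4% of all genes tested). The Notch ligands DLL3 (-0.33 ± 0.07) and DLL1 (-0.44 ± 0.12), both targets of proneural bHLH factors, had the smallest p on the lower side. DLL3 and DLL1 are counted again among the Notch pathway genes below, and STMN2 was also among the noradrenergic markers.

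The HES and HEY repressors split by gene. HES4 and HES3 are shown by their promoters, 250 bases before the RefSeq start on GRCh38.p14, because they differed in opposite directions and both hold the core letters bound by RBPJ. Capitals mark that match, TGGGAA or its reverse complement TTCCCA. HES4 is on the minus strand at chr1:1000098-1000347 and HES3 on the plus strand at chr1:6243929-6244178.
HES4: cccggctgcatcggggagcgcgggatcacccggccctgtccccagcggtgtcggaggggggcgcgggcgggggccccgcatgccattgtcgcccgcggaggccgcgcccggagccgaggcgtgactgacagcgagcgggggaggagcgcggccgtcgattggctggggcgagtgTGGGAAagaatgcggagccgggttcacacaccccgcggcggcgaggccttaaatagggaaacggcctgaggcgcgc
HES3: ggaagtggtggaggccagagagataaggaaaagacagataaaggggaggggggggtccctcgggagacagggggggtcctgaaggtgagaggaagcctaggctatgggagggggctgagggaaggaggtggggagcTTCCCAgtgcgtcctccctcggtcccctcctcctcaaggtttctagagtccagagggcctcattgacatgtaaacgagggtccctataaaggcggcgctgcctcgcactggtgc

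These letters start 76 bases before the HES4 start and 114 bases before the HES3 start. The sequence TGGGAA, on either strand, occurred in promoters of 4 of 7 HES and HEY genes in the table (57.1%: HES3, HES4, HES5 and HEY2), and in 20.8% of all 35116 promoters. HES2, HES6 and HES7 had no match in this window. The genes with the letters were thus found on both sides: HES4 was lower, HES3 and HEY2 were higher, and the groups overlapped in HES5. The N-box CACNAG, a site that HES repressors bind, was found in 2 of 7 HES and HEY genes and in 32% of all promoters. A match is only a description of letters.

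HES4, a HES1 relative, read 6.65 and 6.43 in mock and 6.29 and 6.21 after origamicin. HES3, which maintains neural progenitors, read 4.79 and 5.06 in mock and 5.49 and 5.21 after origamicin. The groups did not overlap in either gene, with a difference of -0.29 ± 0.10 for HES4 (1.23-fold lower, adjusted p = 0.274 in limma) and 0.43 ± 0.14 for HES3 (1.34-fold higher, adjusted p = 0.270 in limma). HES6 opposes HES1 and promotes neuronal differentiation. It read 6.85 and 6.55 in mock and 6.49 and 6.33 after origamicin, a difference of -0.29 ± 0.13. HES7, of the somite segmentation clock, HEY1, a Notch target of vessels, and HES2, HES5 and HEY2 were named after their values were seen. HES7 differed by -0.17 ± 0.07 and HEY1 by -0.21 ± 0.08, with both origamicin arrays below both mock arrays in each. On the other side were HES2 at 0.19 ± 0.11, HEY2 at 0.20 ± 0.08 and HES5, a main Notch effector in neural progenitors, at 0.13 ± 0.20. HES5 was the 1 gene of the 8 whose groups overlapped, and its sign turned without mock replicate 1 (-0.15). In all, 4 of the 8 were higher and 4 lower, and the groups were separated in 87.5% of them against 48.6% of all genes tested.

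Among 29 tested Notch pathway genes, 14 were higher and 15 lower, with 2 higher and 5 lower at an unadjusted p under 0.05 (24.1%, against 16.4% of all genes tested). The ligand JAG1 read 7.82 and 7.55 in mock and 6.53 and 6.83 after origamicin, a difference of -1.01 ± 0.15. LFNG, a glycosyltransferase that modifies Notch receptors, differed by -0.60 ± 0.08. LFNG, JAG1, DLL3 and the Notch feedback gene NRARP passed an adjusted p of 0.05 in the fit with an intensity trend, and LFNG also with the 60th percentile filter. On the higher side were MFNG, another such glycosyltransferase, at 0.20 ± 0.07, and NUMBL, a Notch inhibitor, at 0.25 ± 0.09.

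The SOX family gave 6 higher and 11 lower genes with a median of -0.01. SOX4 acts in neuronal and sympathetic development with its SOXC relatives SOX11 and SOX12. It read 11.14 and 11.20 in mock and 10.998 and 10.990 after origamicin. Both origamicin arrays lay below both mock arrays, a difference of -0.18 ± 0.06 or 1.13-fold (adjusted p = 0.292 in limma). SOX11 read 8.23 and 8.11 in mock and 8.08 and 8.16 after origamicin, with overlapping groups and a difference of -0.05 ± 0.08. SOX12 differed by -0.15 ± 0.09. SOX6, a SOXD factor without an activation domain known from cartilage and interneurons, was on the higher side. It read 4.61 and 4.70 in mock and 4.81 and 4.95 after origamicin, a difference of 0.23 ± 0.08 (adjusted p = 0.297 in limma).

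SOX2, SOX9 and SOX10 had overlapping groups. SOX2, a neural stem cell factor, read 5.45 and 5.29 in mock and 5.27 and 5.38 after origamicin (-0.04 ± 0.09). SOX9, of cartilage and glial progenitors, read 6.99 on both mock arrays and 7.13 and 6.84 after origamicin, which straddles the mock value. SOX10, of neural crest and glia, read 5.21 and 5.48 in mock and 5.46 and 5.43 after origamicin (0.10 ± 0.11).

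The forkhead genes held the lineage factors with the smallest p. FOXI3 and FOXR2 are shown because they kept an unadjusted p under 0.05 in all 14 alternative settings. FOXI3 is on the minus strand at chr2:88452694-88452943 and FOXR2 on the plus strand at chrX:55623150-55623399 of GRCh38.p14, as RefSeq promoters of 250 bases. Capitals mark the E-box CANNTG, the bHLH site.
FOXI3: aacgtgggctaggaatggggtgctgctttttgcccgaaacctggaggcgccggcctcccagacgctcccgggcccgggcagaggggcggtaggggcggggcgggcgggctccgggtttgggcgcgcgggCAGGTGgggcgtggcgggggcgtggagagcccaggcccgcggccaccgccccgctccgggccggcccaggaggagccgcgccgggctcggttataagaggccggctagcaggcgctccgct
FOXR2: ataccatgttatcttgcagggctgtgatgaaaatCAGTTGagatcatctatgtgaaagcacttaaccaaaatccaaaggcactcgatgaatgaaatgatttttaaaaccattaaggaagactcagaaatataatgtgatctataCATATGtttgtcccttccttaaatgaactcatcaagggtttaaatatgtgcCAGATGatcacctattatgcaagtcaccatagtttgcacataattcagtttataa

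The FOXI3 stretch has a GC content of 77.2% and 1 E-box, starting 121 bases before the gene start. The FOXR2 stretch has 33.6% and 3 E-boxes, starting 216, 106 and 55 bases before it. E-boxes were found in 52.3% of the 107 promoters of the lineage factors and in 61.8% of all promoters, so the letters are common.

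FOXI3, which acts in ectoderm and the pharyngeal arches, had the largest fitted difference of all the factors. It read 5.87 on both mock arrays and 6.27 and 6.33 after origamicin. The groups were well apart, at 0.43 ± 0.06 (interval 0.26 to 0.60) or 1.35-fold (adjusted p = 0.152 in limma). FOXR2, a forkhead gene whose protein is known to bind and stabilise MYC family proteins, read 7.64 and 7.73 in mock and 7.35 and 7.39 after origamicin. Both origamicin arrays were below both mock arrays, a difference of -0.32 ± 0.07 or 1.25-fold (adjusted p = 0.179 in limma, and 0.046 with the intensity trend). Across the settings the change ran from 0.40 to 0.46 for FOXI3 and from -0.36 to -0.28 for FOXR2.

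The other factors reached that level in fewer settings: FOXD4 in 11 of 14, GATA4, HES3 and HES4 in 10 of 14, FOXN4 in 9 of 14, SOX4 in 6 of 14 and SOX6 in 4 of 13. FOXD4 read 7.99 and 7.73 in mock and 8.28 and 8.22 after origamicin, 0.39 ± 0.11 or 1.31-fold higher (adjusted p = 0.230 in limma). FOXD4 has near-identical copies, and probes may not separate them, so its value is uncertain: FOXD4L1 differed by 0.15 ± 0.16, FOXD4L5 by -0.16 ± 0.25 and FOXD4L6 by 0.27 ± 0.15, with overlapping groups in each. A second, dimmer FOXD4L6 probe set read 5.58 and 5.44 in mock and 6.003 and 5.807 after origamicin, a difference of 0.39 with groups that did not overlap. FOXD4L6 reached an unadjusted p under 0.05 when the probe sets of a gene were averaged. FOXN4, which specifies retinal and spinal neurons, read 7.11 and 7.03 in mock and 6.71 and 6.89 after origamicin. Its groups did not overlap, and the difference was -0.27 ± 0.09 or 1.21-fold (adjusted p = 0.270 in limma). Of the 40 tested FOX genes, 22 were higher and 18 lower, with a median of 0.02, and groups did not overlap in 9 upward and 8 downward (42.5%, against 48.6% of all genes tested).

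FOXM1 drives mitotic genes. It read 9.66 and 9.54 in mock and 9.79 and 9.74 after origamicin. Both origamicin arrays lay above both mock arrays, by 0.16 ± 0.08, with an interval of -0.04 to 0.37. The listed FOXM1 targets, chosen with earlier results of these data known, gave the opposite count. Of 16 tested, 1 was higher and 15 lower, with a median of -0.22. At an unadjusted p under 0.05 in limma, 7 were lower and 0 higher (all genes: 8.42% lower and 7.99% higher). These shares only describe the list. The mitotic kinesin KIF20A differed by -0.37 ± 0.07 and the mitotic kinase PLK1 by -0.38 ± 0.07. With the intensity trend 5 targets passed the adjusted threshold as lower, against 2.16% of all genes.

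The FOXO factors act downstream of insulin and AKT signalling, largely through their place in the cell rather than their RNA. FOXO1 read 5.76 and 5.69 in mock and 5.79 and 5.80 after origamicin, a difference of 0.08 ± 0.07. FOXO3 read 6.997 and 6.904 in mock and 6.97 and 6.94 after origamicin, a difference of 0.01 ± 0.07. Of 18 tested FOXO regulators and targets, 10 were higher and 8 lower, with 4 higher and 2 lower at an unadjusted p under 0.05 (33.3%, against 16.4% of all genes tested). PDPK1, the kinase that activates AKT, differed by 0.38 ± 0.06 and IRS2, an insulin receptor substrate and FOXO target, by 0.39 ± 0.07. TXNIP, which binds thioredoxin, differed by -0.60 ± 0.10 and catalase (CAT) by -0.29 ± 0.10.

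FOXN2, the second brightest FOX probe set, differed by -0.10 ± 0.08. FOXD3, a neural crest factor, differed by -0.18 ± 0.12 on a dim probe set. A further 9 factors were too dim to test, with signals from 2.44 to 4.09: ASCL3, NEUROD6, SOX14, SOX2-OT, SOX3, FOXL2NB, FOXA1, FOXP2 and FOXB1. Their untested differences ran from -0.28 to 0.33.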

How the data were processed

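RNA of 4 arrays was read on the Affymetrix Human Gene 2.0 ST platform. The deposited values are log2 expression per probe set, and the submitters' processing notes name RMA and limma without versions. The authors' annotation and genome build: not given in the sources used here. Of 53617 probe sets, 16098 carry 1 gene symbol, 0 several and 37519 none in the platform annotation; the brightest probe set per gene was kept. Genes under the 40th percentile of signal (3.82) were left out, which left 11883. Array medians lay between 4.37 and 4.42, arrays correlated at 0.991 to 0.995, and no values were normalized again. The number of arrays limits the precision.

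Origamicin minus mock was fitted in R 4.3.3 with limma 3.58.1 (lmFit, eBayes, single prior variance, two-sided, no covariate), with Benjamini-Hochberg adjustment over 11883 genes, and the procedure was tested on simulated data. Errors are moderated SEs. Named factors are those with an unadjusted p under 0.05 or past the adjusted threshold with an intensity trend, the 2 brightest per family, and a list of known lineage factors. Of each pathway list, the 2 smallest p per side with p under 0.05 are named. TWIST1, ASCL4, FOXL2, FOXD4L1, FOXD4L5, FOXD4L6 and NRARP were given outside this rule. They are not counted among the named genes under alternative settings. Members and lists were chosen with earlier results of these data known. Promoters of 70 of 93 genes were matched by gene identifier in RefSeq and searched on both strands for E-boxes (CANNTG), RBPJ-like letters (TGGGAA) and N-boxes (CACNAG), which can overlap. Alternatives covered the replicate block, filters, normalizations, variance models and leaving out each array.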

Additional observations from a re-analysis of the deposited data

How the results depend on the processing

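Of 443 values of named factors under alternative settings, 422 kept their direction and side of the threshold, 1 passed it and 20 turned sign. None of the 125 for the 9 factors with an unadjusted p under 0.05 turned. The groups of these 9 do not overlap, so leaving out 1 array could not turn their sign. The changes that turned sign were HAND1 with quantile normalization (0.00018) and cyclic loess (0.0013), GATA3 with quantile normalization (0.0041), TCF4 with both (0.017 and 0.0034), SOX9 with quantile normalization (0.0010) and FOXO3 with equal array medians (-0.0087). Leaving out 1 array gave ranges of -0.012 to 0.095 for HAND2, -0.048 to 0.028 for HAND1, -0.033 to 0.018 for TCF4, -0.11 to 0.0075 for SOX11, -0.12 to 0.037 for SOX2, -0.16 to 0.13 for SOX9, -0.033 to 0.23 for SOX10, -0.039 to 0.054 for FOXO3 and -0.15 to 0.41 for HES5.

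Genes past the adjusted threshold numbered 0 in limma as reported (1950 at an unadjusted p under 0.05), 92 with the 60th percentile filter and 511 with the intensity trend, which 1 lineage factor passed (FOXR2). With all probe sets in the fit, 2 lineage factors were higher and 1 lower at an unadjusted p under 0.05, so 3 of 93. Of all probe sets 7.70% reached that level. With the intensity trend 6 factors were higher and 7 lower, so 13 of 84, against 19.7% of all genes. The share of all genes thus moved with the setting too, from 16.4% as reported. The counts also moved when 1 array was left out, which leaves 1 array in a group. The cause was not tested, apart from the number of genes, probe sets or arrays that these settings change. With the replicate block 0 genes passed, and 4 factors were higher and 5 lower, 6 of the 9 shared. Same-numbered arrays did not deviate together (correlation -0.023 over all tested genes), so no shift common to them was seen. Whether the numbers pair the samples cannot be told from this, and the labels do not say.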

Other observations

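Further bHLH genes outside the symbol rule, mostly tissue factors, were listed after the values above had been seen. HEYL, a HEY relative, is counted here and among the Notch pathway genes. ATOH8, NHLH1, NHLH2, OLIG1 and OLIG2 are counted here and among the neurogenesis genes. Of 32 such genes, 26 were named on the array and 20 tested: 9 were higher and 11 lower, with a median of -0.02 and a range from -0.35 (TCF24) to 0.23 (ATOH1, a factor of hair cells and cerebellar granule cells). None had an unadjusted p under 0.05 in limma, against 16.4% of all genes tested, and none passed the adjusted threshold. Groups did not overlap in 4 lower and 0 higher genes, against 25.8% and 22.7% of all genes tested. The 20 genes were mostly dim, with a median signal of 4.67 against 6.54 over all genes. Their median interval reached 0.31 to either side, against 0.22 over all genes, so small differences could be missed.

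The ID proteins, which block bHLH dimers and answer to BMP signals, were not analysed here, but genes of the BMP pathway were. Of 17 tested, 11 were higher and 6 lower, with 5 higher and 1 lower at an unadjusted p under 0.05 (35.3%, against 16.4% of all genes tested). The secreted BMP antagonist GREM1 differed by 0.66 ± 0.13 and the inhibitory SMAD6 by 0.44 ± 0.10, while the ligand BMP7 differed by -0.19 ± 0.06. The clock repressors BHLHE40 and BHLHE41 were likewise not analysed here. Of 14 tested clock genes, 6 were higher and 8 lower, with 3 and 3 at an unadjusted p under 0.05 (42.9%, against the same 16.4%). The BMP and clock lists were also chosen with earlier results of these data known. The nuclear receptors RORB (0.96 ± 0.07) and RORA (0.58 ± 0.07) were higher, and the activator DBP (-0.75 ± 0.07) and the repressor PER2 (-0.38 ± 0.11) lower.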
